A study of Mus musculus with 27 samples.

Results

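Transcripts of 10 genes of the transforming growth factor beta (TGF-beta) pathway were followed in macrophages sorted from the dura mater, the outer membrane around the brain. The genes are the ligand Tgfb1, the receptors Tgfbr1 and Tgfbr2, the signal carrier Smad3, the inhibitors Smad7, Ski, Skil and Pmepa1, and the target genes Tgfbi and Serpinf1. They were found by symbol among the 41388 gene identifiers of the deposited count table, and all 10 passed the filter on low counts, which left 12661 genes. The list was chosen by pathway role with the values of these libraries known, in particular those of the IL-22 group against the total T-cell group. That contrast is therefore given as a description, with no p-value for a member and nothing read from a count of calls.

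All 27 libraries came from B6 mice with the genotype Rag1 ko, aged 16 to 19 weeks, which form neither T nor B cells but keep innate lymphoid cells and all cytokine genes of the host. In 6 of the 7 groups the mice had received T cells 6.5 weeks earlier, and the knockouts were in those donor T cells, so macrophage RNA cannot show whether a knockout worked. T cells lacking interleukin-22 (IL-22 group) gave 3 libraries, 2 female and 1 male. T cells labelled as knockout for the interleukin-6 receptor alpha chain and the interleukin-21 receptor (IL-6Ra/IL-21R group) gave 7, of which 3 were female. T cells lacking T-bet, the transcription factor of type 1 helper cells, gave 2 female libraries, as did T cells lacking interferon-gamma (IFN-gamma group) and T cells lacking interleukin-17A and F (IL-17A/F group). Unmodified B6 T cells (total T-cell group) gave 5 libraries, 4 female and 1 male, and untreated mice (no T-cell group) gave 6, 4 female and 2 male. The labels do not say whether the IL-6Ra/IL-21R cells lacked both receptors in each cell, nor that each library is a separate animal, so a p-value here weighs library spread, which may be partly technical.

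Secreted TGF-beta is held latent until it is released, for example by integrins or thrombospondin, and it then brings the type II receptor Tgfbr2 and the type I receptor Tgfbr1 together. The active type I receptor phosphorylates Smad2 and Smad3, which enter the nucleus with Smad4 and bind DNA at short CAGAC elements. The signal switches on its own brakes, among them Smad7 and Pmepa1, and TGF-beta is known for its role in the identity of resident macrophages of the brain and other tissues.

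Counts per library ranged from 6902602 to 19966749, and levels are given as CPM, the count scaled to library size with TMM factors. The smallest member count in any library was 132, for Smad7, and the next smallest gene minimum was 252, for Smad3. The libraries fell into 3 sets by the summed CPM of 79 ribosomal protein genes: 26846.5 to 32858.9 in set A, 11073.7 to 15499.0 in set B and 7197.7 to 8554.6 in set C. The total T-cell group had 3 libraries in set A and 2 in set B, and the no T-cell group 4 and 2. All 3 IL-22 libraries and 6 of 7 IL-6Ra/IL-21R libraries were in set B, and male M4 of that group was in set C with all libraries of the IFN-gamma, IL-17A/F and T-bet groups. For those last 3 groups, the set is separated from the group by male M4 alone. All 8 macrophage markers, such as Csf1r and Adgre1, were detected in every library, with a summed CPM between 15000 and 23800.

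Windows of 250 bases upstream of the RefSeq start were searched for the letters CAGAC and, for the other strand, GTCTG. The RefSeq promoter table (build GRCm38.p6) held 8 windows for 7 of the 10 members. Smad7, Skil and Pmepa1 were not in it. Of the 8 windows, 4 held the letters at least once, against 42.2% of all 32851 windows. Tgfbi and Serpinf1 each held them at 2 places, and 11.7% of all windows held them at 2 or more. Shown are the upstream stretches of Tgfbr2, Tgfbi and Serpinf1, the only 3 of the 5 members with the widest range between groups for which a window was given. Each runs 5′ to 3′ on the gene's own strand, stops before the GENCODE gene begins, and has CAGAC or GTCTG in capitals. They cover chr9:116175364-116175613 (minus strand) for Tgfbr2, chr13:56609336-56609522 (plus strand) for Tgfbi and chr11:75422702-75422873 (minus strand) for Serpinf1.
Tgfbr2: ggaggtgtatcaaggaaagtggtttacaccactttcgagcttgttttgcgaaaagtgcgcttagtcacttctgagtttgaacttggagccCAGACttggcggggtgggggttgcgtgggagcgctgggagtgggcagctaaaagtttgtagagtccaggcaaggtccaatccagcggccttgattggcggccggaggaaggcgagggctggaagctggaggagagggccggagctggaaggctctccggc
Tgfbi: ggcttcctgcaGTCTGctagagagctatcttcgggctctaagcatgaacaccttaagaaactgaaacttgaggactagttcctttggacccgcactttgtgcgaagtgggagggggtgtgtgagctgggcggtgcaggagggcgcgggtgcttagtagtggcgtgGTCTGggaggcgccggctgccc
Serpinf1: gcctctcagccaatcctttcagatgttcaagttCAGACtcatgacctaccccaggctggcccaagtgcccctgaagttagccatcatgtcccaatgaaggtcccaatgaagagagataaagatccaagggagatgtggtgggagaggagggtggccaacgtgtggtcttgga
In Tgfbr2 the first base of the element lay 160 bases upstream, and in Tgfbi the first bases lay 239 and 85 bases upstream. In Serpinf1 they lay 217 and 38 bases upstream, and the nearer of these falls inside the GENCODE gene and is not shown. These matches describe letters in a window and say nothing of binding.

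Per kilobase of exon, Tgfbi was the most abundant of the 10 transcripts, at 387 CPM per kb over all libraries. Tgfbr2 followed at 94.5, Tgfb1 at 78.4, Serpinf1 at 77.3 and Skil at 70.8 CPM per kb. Tgfbr1 had 43.5, Ski 42.4 and Pmepa1 23.5 CPM per kb. The 2 SMADs were the least abundant, Smad3 at 7.41 and Smad7 at 4.62 CPM per kb. The distance between the highest and the lowest group mean on the log2 CPM scale was 2.07 for Serpinf1, 1.40 for Smad7, 1.17 for Pmepa1, 1.16 for Tgfbi and 1.05 for Tgfbr2. It was between 0.21 (Tgfb1) and 0.74 (Tgfbr1) for the other 5. The median of that distance was 0.89 over the 10 members and 0.92 over all genes tested. No exon of another annotated gene overlapped an exon of a member on either strand.

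**Figure D1:**
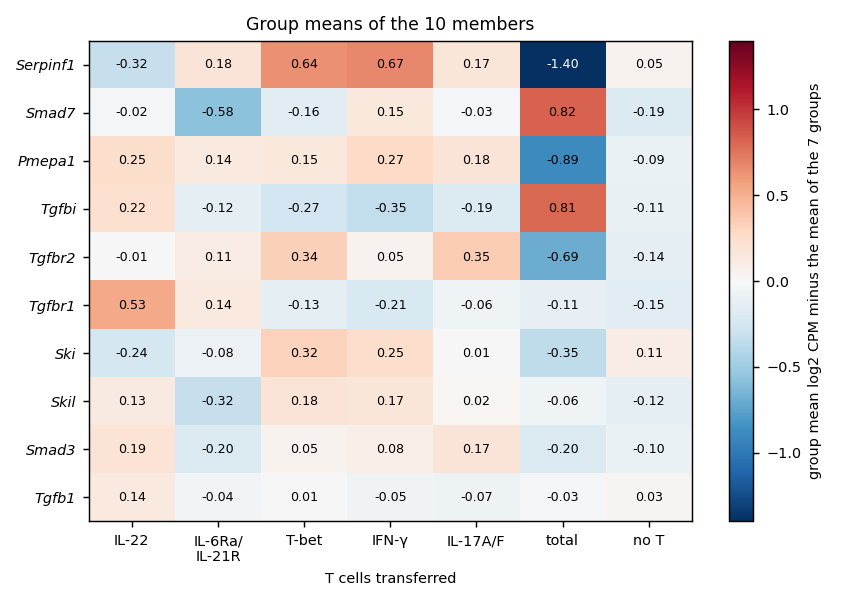
Mean log2 CPM of each member in each group, minus the mean of its 7 group values, with the T cells the mice received on the horizontal axis and genes ordered by range. The total T-cell column holds the lowest value for Serpinf1 (-1.40), Pmepa1 (-0.89) and Tgfbr2 (-0.69) and the highest for Smad7 (0.82) and Tgfbi (0.81), while Tgfbr1 is highest in the IL-22 column (0.53).

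The ligand varied least. Tgfb1 (ENSMUSG00000002603, chr7:25687002-25705077, GRCm38) encodes TGF-beta 1, the form made by most immune cells. Its group means lay between 376 ± 10.1 CPM (SD, n = 2) in the IL-17A/F group and 435 ± 35.5 CPM (n = 3) in the IL-22 group. Every group overlapped its neighbour in the order of means.

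Tgfbr1 (ENSMUSG00000007613, chr4:47353222-47414931) encodes the type I receptor kinase. It had 403 and 385 CPM in the female and 404 CPM in the male IL-22 library, against 181, 281, 292 and 247 CPM in the female and 291 CPM in the male total T-cell libraries. All 3 IL-22 libraries lay above every library of every other group, the next group being IL-6Ra/IL-21R at 306 ± 49.7 CPM (n = 7). How many of all genes have a group apart from all others in this way was not counted, for Tgfbr1 or the members below. The remaining group means ran from 240 ± 50.0 CPM in the IFN-gamma group to 271 ± 85.7 CPM in the IL-17A/F group (n = 2 each), and neighbours there overlapped.

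Tgfbr2 (ENSMUSG00000032440, chr9:116084293-116175360) encodes the type II receptor, which binds the ligand. It had 777 and 745 CPM in the female and 832 CPM in the male IL-22 library, against 282, 547, 638 and 603 CPM in the female and 466 CPM in the male total T-cell libraries. In the 7 IL-6Ra/IL-21R libraries it had 685 to 1067 CPM (median 818), and in the 6 no T-cell libraries 665 to 805 CPM (median 707). All 5 total T-cell libraries lay below every library of the other 6 groups. The T-bet pair had 994 and 1001 CPM, the IL-17A/F pair 974 and 1042 CPM, and the IFN-gamma pair 690 and 968 CPM. The order of means from IL-17A/F (1008 ± 48.0 CPM) down to no T cells (718 ± 46.8 CPM) had an overlap at each step.

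Smad3 (ENSMUSG00000032402, chr9:63646767-63757994), the receptor-activated SMAD that carries the signal into the nucleus, differed little between groups. Its means lay between 37.3 ± 7.50 CPM in the total T-cell group (n = 5) and 48.3 ± 2.57 CPM in the IL-22 group (n = 3), with an overlap between all neighbours.

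Smad7 (ENSMUSG00000025880, chromosome 18) encodes the inhibitory SMAD that blocks the type I receptor. It had 15.5 and 17.8 CPM in the female and 27.3 CPM in the male IL-22 library, against 45.2, 43.7, 27.8 and 28.0 CPM in the female and 35.4 CPM in the male total T-cell libraries. The 7 IL-6Ra/IL-21R libraries had 9.14 to 19.7 CPM (median 12.6) and the 6 no T-cell libraries 11.8 to 25.0 CPM (median 18.0). The IFN-gamma group averaged 22.3 ± 4.78 CPM, the IL-17A/F group 19.5 ± 0.780 CPM and the T-bet group 17.8 ± 0.458 CPM (n = 2 each). All 5 total T-cell libraries lay above every other library, the male IL-22 library being the nearest, close below the set B pair F3 and F4.

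Ski and Skil encode related co-repressors that hold SMAD complexes inactive. Ski (ENSMUSG00000029050, chr4:155154075-155222592) averaged 203 ± 8.15 CPM in the IL-22 group and 189 ± 16.3 CPM in the total T-cell group, the lowest 2 means. It was highest at 300 ± 6.66 CPM in the T-bet group, which did not overlap the IFN-gamma group at 286 ± 9.53 CPM. Skil (ENSMUSG00000027660, chr3:31095058-31122577) lay between 579 ± 110 CPM in the IL-6Ra/IL-21R group and 812 ± 146 CPM in the T-bet group, with an overlap at each step.

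Pmepa1 (ENSMUSG00000038400, chr2:173224458-173276533) encodes a membrane protein that keeps Smad2 and Smad3 from the receptor. It had 127 and 142 CPM in the female and 144 CPM in the male IL-22 library, against 45.0, 66.0, 69.6 and 81.9 CPM in the female and 55.5 CPM in the male total T-cell libraries. The 6 no T-cell libraries had 82.0 to 139 CPM (median 113) and the 7 IL-6Ra/IL-21R libraries 81.9 to 170 CPM (median 129). The highest total T-cell library was thus level with the lowest IL-6Ra/IL-21R library, female F2, and just under the lowest no T-cell library. The T-bet pair had 139 and 118 CPM, the IFN-gamma pair 129 and 152 CPM and the IL-17A/F pair 119 and 144 CPM.

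Tgfbi (ENSMUSG00000035493, chr13:56609523-56639562) encodes a secreted matrix protein that was first found as a gene induced by TGF-beta and that monocytes also express. It had 1232 and 1253 CPM in the female and 2287 CPM in the male IL-22 library, against 4253, 1944, 1552 and 1586 CPM in the female and 3064 CPM in the male total T-cell libraries. In the 6 no T-cell libraries it had 1146 to 1261 CPM (median 1223) and in the 7 IL-6Ra/IL-21R libraries 1008 to 1317 CPM (median 1216). The male IL-22 library lay within the total T-cell range, and its 2 female libraries lay below it and within the no T-cell range. The T-bet pair had 1093 and 1076 CPM, the IFN-gamma pair 1098 and 956 CPM and the IL-17A/F pair 1153 and 1139 CPM, all under the total T-cell range.

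Serpinf1 (ENSMUSG00000000753, chr11:75409769-75422701) encodes pigment epithelium-derived factor, a secreted protein that limits vessel growth and that fibroblasts make in quantity. It had 173 and 183 CPM in the female and 94.4 CPM in the male IL-22 library, against 54.2, 66.2, 102 and 100 CPM in the female and 39.6 CPM in the male total T-cell libraries. The 6 no T-cell libraries had 155 to 222 CPM (median 185) and the 7 IL-6Ra/IL-21R libraries 169 to 271 CPM (median 191). Here too the male IL-22 library lay within the total T-cell range and the 2 female ones above it. The T-bet pair had 283 and 277 CPM and the IFN-gamma pair 279 and 292 CPM, above every library of any other group, while the IL-17A/F pair had 186 and 221 CPM.

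**Figure D2:**
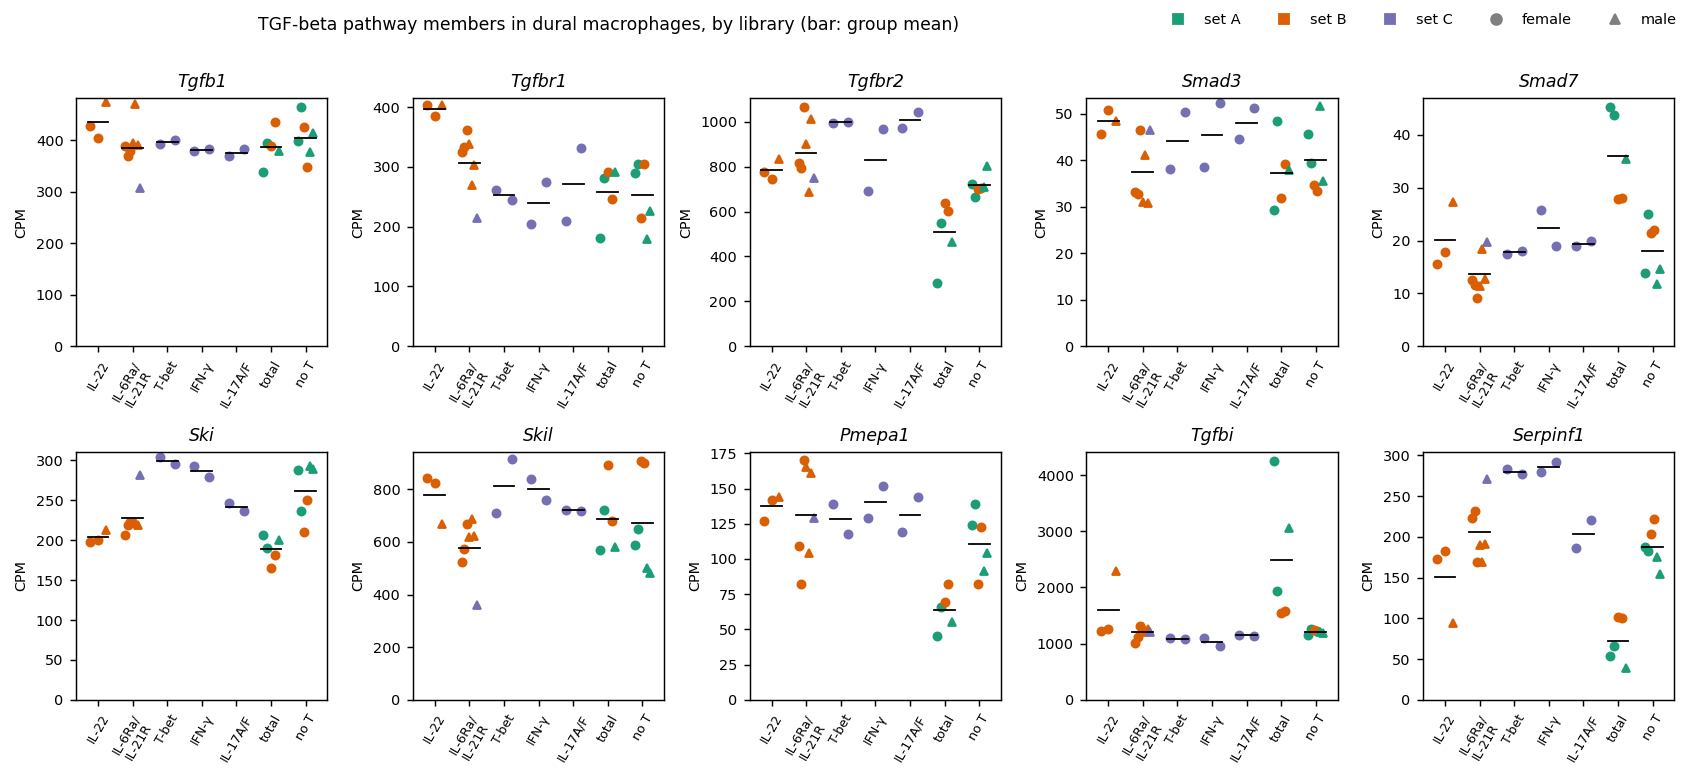
CPM of the 10 members in each of the 27 libraries, by the T cells received, with colour for the library set, shape for the sex and a bar at the group mean. For Tgfbr1 all 3 IL-22 points lie above all others, between 385 and 404 CPM, and for Tgfbi and Serpinf1 the male IL-22 triangle (2287 and 94.4 CPM) lies among the total T-cell points.

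Against total T cells, the IL-22 group was higher by a log2 fold change of 1.12 ± 0.21 (SE) for Pmepa1, 1.09 ± 0.21 for Serpinf1, 0.64 ± 0.18 for Tgfbr1 and 0.63 ± 0.18 for Tgfbr2. It was lower for Smad7, at -0.86 ± 0.28, and for Tgfbi, at -0.70 ± 0.23. The other 4 lay between 0.09 ± 0.10 (Ski) and 0.36 ± 0.18 (Smad3). The libraries did not overlap between the 2 groups for Tgfbr1, Tgfbr2, Smad7 and Pmepa1, and this holds for 10.1% of all genes. Of all genes, 0.284% passed the threshold of 0.05 on the adjusted p (edgeR). Members are not called by that threshold here, because this contrast chose the list. The background was 36 genes and lay between 1 gene and 800 genes (without total T-cell female F3) when single libraries were left out. In set B alone, with 3 IL-22 and 2 total T-cell libraries, the log2 differences were 0.80 ± 0.28 for Pmepa1, 0.67 ± 0.19 for Serpinf1, 0.60 ± 0.16 for Tgfbr1 and 0.34 ± 0.17 for Tgfbr2. They were -0.65 ± 0.24 for Smad7 and -0.14 ± 0.17 for Tgfbi. Tgfbi also moved to -0.39 without total T-cell female F1 and to -0.96 without the male IL-22 library.

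**Figure D3:**
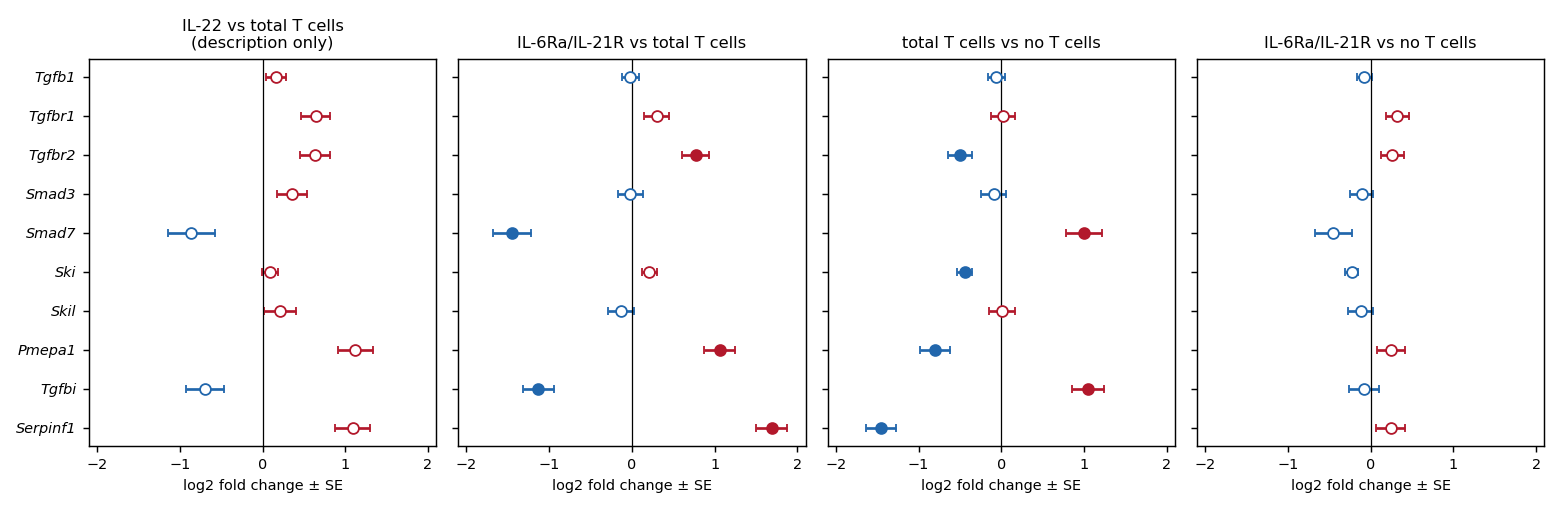
Log2 fold change ± SE of the 10 members in 4 comparisons, first-named group over second-named, with red for higher, blue for lower and a filled point for an adjusted p under 0.05 (none is shown for IL-22 against total T cells, which is a description). Serpinf1 lies at -1.45 in total T cells against no T cells and at 1.69 in IL-6Ra/IL-21R against total T cells, and no point is filled in IL-6Ra/IL-21R against no T cells.

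The comparisons of 4 knockout groups with the no T-cell group use no library of the contrast that chose the list. In the IL-6Ra/IL-21R group against no T cells, 0 of 10 members passed an adjusted p (q) of 0.05 in edgeR's quasi-likelihood test, where 1.16% of all genes did. Unadjusted, 3 members were under 0.05, as were 1367 of the 12661 genes, and DESeq2 also called 0. The members closest to the threshold were Ski at -0.23 ± 0.08 (q = 0.232), Tgfbr1 at 0.32 ± 0.14 (q = 0.421) and Smad7 at -0.45 ± 0.22 (q = 0.460). In set B alone, with 6 against 2 libraries, the log2 fold change of Smad7 was -1.01 (q = 0.0572). That of Skil was -0.54 (q = 0.12) in set B, against -0.12 ± 0.15 over all libraries. The T-bet group against no T cells also had 0 of 10 members called by edgeR, against 7.3% of genes. Under an unadjusted 0.05 were 2 members, Tgfbr2 (0.47 ± 0.20) and Ski (0.25 ± 0.12), and 2911 of the 12661 genes. The IFN-gamma group had 0 called against 13.2% of genes and 0 under an unadjusted 0.05, where 3675 of the 12661 genes were. Its largest difference was Serpinf1 at 0.48 ± 0.24 (q = 0.175). Fitted beside the library set, Serpinf1 turned to -0.45 in the IFN-gamma group and to -0.48 in the T-bet group, where it was 0.46 ± 0.24, and was -0.94 in the IL-17A/F group. The IL-17A/F group had 0 called against 6.03% of genes. Tgfbr2 (0.49 ± 0.20) was the only member under an unadjusted 0.05 there, as were 2822 of the 12661 genes. DESeq2 called 0 members in all 3 of these comparisons. The background of these pairs moved with single libraries: 0 genes were called without T-bet female F1 and 45 without its F2, 1 without IFN-gamma female F1 and 2125 without its F2, and 27 without IL-17A/F female F1 and 3 without its F2. In the IL-6Ra/IL-21R comparison it moved between 72 genes without no T-cell male M1 and 295 genes without IL-6Ra/IL-21R male M4, with 147 over all libraries. The median size of the members' log2 differences was 0.24 against 0.18 over all genes for IL-6Ra/IL-21R, 0.18 against 0.35 for T-bet, 0.08 against 0.35 for IL-17A/F and 0.19 against 0.42 for IFN-gamma.

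Mice given total T cells differed from mice without T cells in 6 of 10 members, where 21.1% of all genes were called. The total T-cell libraries are among those known when the list was chosen, so this count is no independent evidence of the direction. Smad7, the pathway's own inhibitor, was higher by a log2 fold change of 1.00 ± 0.22 (q = 0.00229), and Tgfbi was 2.07-fold higher (1.05 ± 0.19, q = 0.000401). Serpinf1 was 2.73-fold lower (-1.45 ± 0.18, q = 2.7e-05) and Pmepa1 1.74-fold lower (-0.80 ± 0.18, q = 0.00301). Ski was 1.36-fold lower (-0.44 ± 0.09, q = 0.000924) and Tgfbr2 1.42-fold lower (-0.50 ± 0.15, q = 0.0225). These 6 are also the members whose libraries did not overlap between the groups, which holds for 10.5% of all genes. Tgfb1, Tgfbr1, Smad3 and Skil had differences between -0.09 and 0.02 with q of at least 0.712. The count of all genes called, 2669, was 1679 without the male total T-cell library. Without total T-cell female F1 the value for Tgfbr2 was -0.35 (q = 0.0536), and without the male library it was -0.46 (q = 0.0799). The same 6 were called in set A alone, with 3 against 4 libraries, where 2101 genes of all were called. Serpinf1 was at -1.80 (q = 0.000811) there and Tgfbi at 1.35 (q = 0.00568). In set B alone, with 2 libraries on each side, Serpinf1 was the 1 member called (-1.07, q = 0.029), and 92 genes of all were called. Tgfbr2 was at -0.17 in set B, Smad7 at 0.36, Tgfbi at 0.35, Pmepa1 at -0.43 and Ski at -0.40.

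Set against total T cells, the IL-6Ra/IL-21R group differed in 5 of 10 members, where 28.2% of genes were called. This comparison uses the same total T-cell libraries, known when the list was chosen, so its count and q-values are no independent evidence. Serpinf1 was 3.23-fold higher (log2 1.69 ± 0.19, q = 3.8e-06), Pmepa1 2.08-fold higher (1.06 ± 0.19, q = 0.000197) and Tgfbr2 1.70-fold higher (0.77 ± 0.16, q = 0.000668). Smad7 was 2.73-fold lower (-1.45 ± 0.23, q = 5.7e-05) and Tgfbi 2.19-fold lower (-1.13 ± 0.19, q = 9.6e-05). In set B alone Serpinf1 (1.15, q = 0.00288), Smad7 (-1.38, q = 0.00272) and Tgfbi (-0.56, q = 0.042) were called, and Tgfbr2 (0.50, q = 0.0712) and Pmepa1 (0.70, q = 0.135) were not. Of all genes, 842 were called in set B. Ski, at 0.21 ± 0.09 (q = 0.0729), was not called.

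The IL-22 group against no T cells had 0 of 10 members called, and 1 gene of all, 0.0079%. DESeq2 called 2 members there and 159 genes of all. Under an unadjusted 0.05 in edgeR were 2 members and 1194 of the 12661 genes. Tgfbr1 was at 0.66 ± 0.18 (q = 0.140) with no overlap between the groups, and Ski was at -0.36 ± 0.10 (q = 0.167). Tgfbr1 was the 1 member without overlap, which holds for 6.62% of all genes. Between the IL-22 and the IL-6Ra/IL-21R group, 0 members were called by edgeR or DESeq2, and edgeR called 0.0079% of genes. Unadjusted, 3 members and 1088 of the 12661 genes were under 0.05 in edgeR. The largest differences were -0.60 ± 0.21 for Serpinf1 (q = 0.340) and 0.59 ± 0.25 for Smad7 (q = 0.496). These comparisons of the IL-22 group use libraries known when the list was chosen, so their counts and q-values are no independent evidence. Males and females differed in 0 of 10 members, with 0.0474% of genes called and 0 members called by DESeq2. Between the sexes, 3 members and 949 of the 12661 genes were under an unadjusted 0.05 in edgeR. The log2 difference of males from females was -0.38 ± 0.14 for Serpinf1, -0.30 ± 0.12 for Skil and 0.15 ± 0.07 for Ski (q = 0.652 for each).

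The rest of the pathway was taken from 5 lists of genes other than the members. In total against no T cells, 2 of 17 ligand and activation genes were higher and 3 were lower, where 11.5% of all genes were higher and 9.6% lower. The counts of the 5 lists are given beside that background as descriptions. Thbs1, thrombospondin 1, which can release latent TGF-beta, was higher by 2.76 ± 0.52 (q = 0.000566), with 1305 CPM in total T-cell and 190 CPM in no T-cell libraries. Inhba, which encodes the subunit of activin A, was higher by 4.09 ± 0.71 (q = 0.000309), at 20.7 CPM in total T-cell and 1.22 CPM in no T-cell libraries. Bmp2 (-1.70 ± 0.40), Tgfb3 (-0.72 ± 0.20) and Itgb5 (-0.41 ± 0.12) were lower. Of 9 further receptors, Acvr1b was higher (0.62 ± 0.19) and Bmpr1a lower (-0.95 ± 0.25), and of 12 SMADs and partners Smad5 was lower (-0.69 ± 0.15). Among 14 further inhibitors, Tgif1 (0.91 ± 0.14) and Tob1 (0.65 ± 0.15) were higher, and Fkbp1a (-0.35 ± 0.10) and Ppm1a (-0.26 ± 0.09) were lower. Of 21 other target genes 6 were higher, led by Fn1 (2.57 ± 0.53), Vegfa (2.13 ± 0.44) and Bhlhe40 (1.53 ± 0.33), and Col1a1 (-1.57 ± 0.45) and Tsc22d1 (-0.76 ± 0.18) were lower. The list medians were -0.41 for ligands, 0.02 for receptors, -0.06 for SMADs, -0.11 for inhibitors and 0.32 for targets, against -0.03 over all genes. Fn1 and Col1a1 also stand on the monocyte-derived and fibroblast marker lists. In the IL-6Ra/IL-21R group against no T cells, 0 genes of the 5 lists were called by edgeR. In the IL-22 group against total T cells, Itgb5, an integrin subunit that pairs with integrin alpha V, was higher by 0.63 ± 0.14, at 617 CPM in IL-22 and 403 CPM in total T-cell libraries. It is named as the 1 gene of the 5 lists among the 0.284% called in the contrast that chose the members, and nothing is read from that.

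Markers of other cell states and types also differed between the groups. Summed over 10 markers of monocyte-derived cells, such as Ly6c2 and Ccr2, the IL-22 libraries had 1020 to 1650 CPM, total T-cell libraries 1890 to 8900 CPM and no T-cell libraries 741 to 1340 CPM. Summed over 10 markers of border macrophages, such as Mrc1 and Lyve1, the IL-22 libraries had 7020 to 9100 CPM, total T-cell libraries 1570 to 6770 CPM and no T-cell libraries 8330 to 12100 CPM. Of these markers 9 of 10 monocyte-derived ones were higher and 9 of 10 border ones lower in total than in no T cells. Total T-cell female F1, with the highest Tgfbi (4253 CPM) and the lowest Tgfbr2 (282 CPM), had the highest monocyte-derived sum (8900 CPM) and the lowest border sum (1570 CPM). The male IL-22 library had the highest monocyte-derived sum (1650 CPM) and the lowest border sum (7020 CPM) of its group. Their part in the members' differences was not tested, and in bulk RNA fewer cells of a type and less RNA per cell cannot be told apart.

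Fibroblast markers, such as Col1a1 and Dcn, summed to 691 to 925 CPM in IL-22, 330 to 497 CPM in total T-cell and 612 to 1770 CPM in no T-cell libraries. They reached 4030 to 4550 CPM in the IFN-gamma, 3770 to 4230 CPM in the T-bet and 2730 to 3880 CPM in the IL-17A/F libraries. IL-6Ra/IL-21R libraries had 510 to 1490 CPM in set B and 4510 CPM in male M4, the library of that group in set C. All libraries of the IFN-gamma, T-bet and IL-17A/F groups are in set C too, and the part of the set was not tested. Of 9 tested, 4 were lower in total than in no T cells, and at least 9 of the 10 were detected in every library. Serpinf1 was highest in the IFN-gamma and T-bet libraries, at 277 to 292 CPM. The IL-17A/F libraries, with sums of 2730 and 3880 CPM, had 186 and 221 CPM of Serpinf1, within the no T-cell range of 155 to 222 CPM. Male M4 of the IL-6Ra/IL-21R group, with a sum of 4510 CPM, had 271 CPM of Serpinf1. The set B libraries of its group had 169 to 232 CPM. The part of fibroblast RNA in the level of Serpinf1 was not tested. Endothelial markers summed to at most 172 CPM in any library, dendritic-cell markers to 275 CPM, T-cell markers to 229 CPM and platelet markers to 11.3 CPM. Of 9 T-cell markers 2 passed the filter, Cd4 and Cd28. Cd4 alone averaged 186 CPM in IL-22, 79.9 CPM in total T-cell and 119 CPM in no T-cell libraries. Neutrophil markers stayed at or under 173 CPM except in no T-cell libraries, where they reached 1500 CPM, and Ly6g was at 0 in all other groups. Cd3e was at 0 in the T-bet and IFN-gamma groups.

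**Figure D4:**
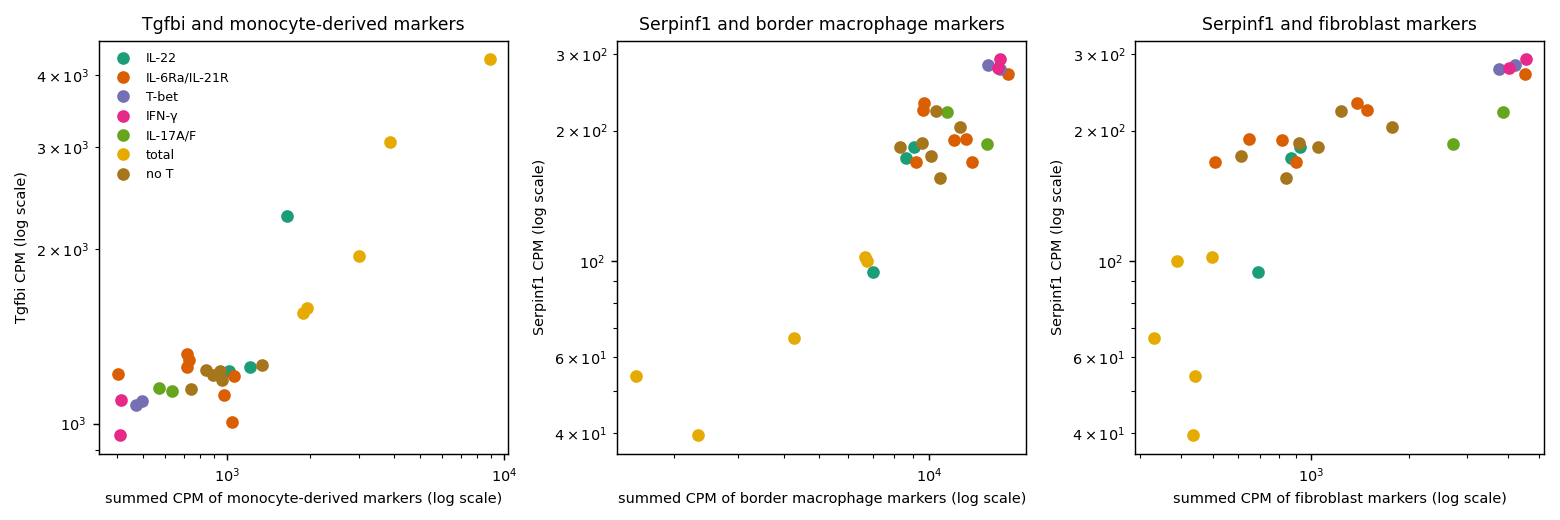
CPM of Tgfbi against the summed CPM of 10 monocyte-derived markers (left), and of Serpinf1 against 10 border macrophage markers (middle) and 10 fibroblast markers (right), 1 point per library, both axes on a log scale, coloured by the T cells received. Total T-cell points take the upper right on the left (up to 4253 CPM of Tgfbi) and the lower left in both Serpinf1 panels, and the male IL-22 point (2287 and 94.4 CPM) lies apart from its group toward them.

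Genes with the pattern most like a member's were named for the 3 members with the widest range, by the root mean square difference of centred log2 CPM over 27 libraries. Closest to Serpinf1 were Fkbp9 (0.181), Maged1 (0.277) and Stard8 (0.292), where the SD of Serpinf1 itself was 0.725. Closest to Smad7 were Fxyd5 (0.309), Flna (0.312) and Hspa2 (0.319), against an SD of 0.569. Closest to Pmepa1 were Olfml3 (0.228), Tmem64 (0.257) and Ggt5 (0.264), against an SD of 0.485. The libraries share groups, sets and sort, and these likenesses are descriptions.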

How the data were processed

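RNA-seq of sorted dural macrophages was deposited as 1 table of whole-number counts per gene for 27 libraries. The dura of perfused mice was digested and macrophages were taken by flow sorting, per the labels' protocols, and unstranded libraries were read as single ends of 75 nucleotides. The submitters' processing notes name the GRCm38 build, DESeq2 1.20.0, featureCounts and STAR 2.4.0j. Sort markers, tool settings and their roles were not given in the sources used here. By its name the deposited table holds normalized counts, but they are whole and the library totals differ, so they were treated as raw counts. Symbols, positions and exon lengths came from GENCODE M21, which matched 40254 of 41388 identifiers, and identifiers without a symbol took 0.106% to 0.143% of a library. Of the value columns, 0 were left unused.

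Column names gave each library's group and sex. Replicate numbers are absent from them, so libraries have running numbers (F1, M1), and by their names the T-bet pair could be 1 animal and some libraries could be pools.

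Genes were kept from a mean normalized count of 10 upward (12661). One edgeR model (4.0.16, R 4.3.3, TMM) with group and sex was fitted to all 27 libraries, tested by quasi-likelihood, with Benjamini-Hochberg adjustment over all genes of a comparison and a threshold of 0.05. It was tested on simulated data. Alternatives were RLE scaling, DESeq2 1.42.0, no filter, no sex term, females only, the library set as a term or set B alone, and leaving out each library. Set A alone was chosen after seeing the data. Sets were cut at 20000 and 10000 CPM of ribosomal protein genes. Log2 CPM used a prior count of 2.

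The members and lists were chosen with earlier results of these data known. All members are described, the 5 with the widest range of group means by library. Other pathway genes are named where called in total T cells or the IL-6Ra/IL-21R group against no T cells, up to 3 per direction and list, or where a count of 5 or fewer needs them. The pattern of likeness leaves members out. Counting error alone is small at these depths, and with 2 to 7 libraries a group the spread between libraries limits precision.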

Additional observations from a re-analysis of the deposited data

Results flagged for a closer look

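Ski had 282 CPM in male M4 of the IL-6Ra/IL-21R group, far above the other 6 libraries of that group, which had 206 to 223 CPM. The gap to the nearest of them was 0.776 of the group's whole range (n = 7). It is the 1 library of its group in set C, where the T-bet and IFN-gamma libraries had 279 to 304 CPM and the IL-17A/F libraries 237 and 246 CPM. Of 30 groups of values looked at in this way 1 stood out, and chance gives about 1 in 20. The part of the library set in this value was not tested.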

How the results depend on the processing

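No paired analysis was possible because no replicate number stands in the column names. None of the members' log2 fold changes called as reported changed sign under the alternatives run. Genes called in IL-22 against total T cells, 36 as reported, were 4 with RLE scaling, 749 with DESeq2, 1219 without a filter, 4 without a sex term, 0 in females, 2 with the set as a term and 0 in set B alone, and 1 to 800 when 1 library was left out (800 without total T-cell F3). Members called there were 0, 6, 6, 1, 0, 0 and 0 under the same alternatives and 0 to 5 with 1 library left out (5 without F3). For total against no T cells, 2669 as reported, they were 1560 in females and 92 in set B, and 1679 (without the male total T-cell library) to 3085, and set B called 1 member. For IL-22 against no T cells, 1 as reported, they were 159 with DESeq2, 499 without a filter, 11 without a sex term, 0 in females, 72 with the set and 7 in set B, and 0 to 29, and members were 2 with DESeq2 and 1 without a filter. For IL-6Ra/IL-21R against no T cells, 147 as reported, they were 256 with DESeq2, 564 without a filter, 12 in females, 10 with the set and 61 in set B, and 72 (without no T-cell M1) to 295 (without M4). Against total T cells, 3566 as reported, they were 1974 in females, 1809 with the set and 842 in set B, which called 3 members. Between IL-22 and IL-6Ra/IL-21R, 1 as reported, they were 92 with DESeq2, 558 without a filter (1 member), 13 without a sex term, 0 in females, 32 with the set and 164 in set B, and 0 to 73. Against no T cells, the T-bet count of 924 was 1510 without a filter and 0 with the set, and 0 (without T-bet F1) to 1260. The IFN-gamma count of 1667 was 0 with the set and 1 (without F1 of that group) to 2125 (without its F2). The IL-17A/F count of 764 was 1172 with DESeq2, 1388 without a filter and 35 with the set, and 3 (without its F2) to 1209. The male and female count of 6 was 11 with DESeq2, 290 without a filter and 0 in set A. The cause of these shifts was not tested. Leaving 1 library in a group of 2 assumes that it varies like the others.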

Other observations

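The IFN-gamma, IL-17A/F and T-bet groups differed from no T cells in other genes of the pathway. Of the members 0 were called there, where 13.2%, 6.03% and 7.3% of all genes were. With 10 members, nothing is read from that count. In the IFN-gamma group 5 of 17 ligand and activation genes were higher, where 6.95% of all genes were. They were Ltbp2, which encodes a latent TGF-beta binding protein, by a log2 fold change of 3.51 ± 0.69 (109 CPM in IFN-gamma and 9.98 CPM in no T-cell libraries), Ltbp1 by 2.38 ± 0.71, Ltbp4 by 2.32 ± 0.75, Ltbp3 by 1.41 ± 0.41 and Tgfb3 by 1.35 ± 0.25. The receptors Tgfbr3 (2.73 ± 0.55), Bmpr1a (1.22 ± 0.31) and Bmpr2 (0.74 ± 0.14) were higher too, as 3 of 9. So were Dcn, which encodes the TGF-beta binding proteoglycan decorin (2.38 ± 0.46, 321 CPM in IFN-gamma and 61.5 CPM in no T-cell libraries), Smurf2 (0.52 ± 0.17) and Ldlrad4 (0.73 ± 0.22), as 3 of 14 inhibitors. Of 21 targets, Zeb1 (1.96 ± 0.33), Col1a1 (1.88 ± 0.55, 1298 CPM in IFN-gamma and 349 CPM in no T-cell libraries), Id3 (1.04 ± 0.26) and Tsc22d1 (0.83 ± 0.23) were higher. Ep300 (0.79 ± 0.26) was the 1 of 12 SMADs and partners. Of 1667 genes called over the whole comparison, 1 was called without female F1 of this group, which had 5.05% mitochondrial counts, the most of all libraries, and 2125 were called without its F2.

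The T-bet group had 2 of 17 ligand genes higher, Ltbp2 (3.21 ± 0.69) and Ltbp3 (1.38 ± 0.41), where 4.46% of all genes were higher. Of 9 receptors 3 were higher, Tgfbr3 (1.86 ± 0.56), Bmpr1a (1.38 ± 0.31) and Bmpr2 (0.71 ± 0.14). So were 1 of 12 SMADs and partners and 3 of 21 targets. The IL-17A/F group had Ltbp2 (2.79 ± 0.69) higher, as 1 of 17 ligand genes, where 3.99% of all genes were. Bmpr1a (1.21 ± 0.31) and Bmpr2 (0.50 ± 0.15) were higher as 2 of 9 receptors. In that group 1 of 12 SMADs and partners and 1 of 21 targets were higher too. Of 14 inhibitors 1 was lower there, where 2.05% of all genes were. Without F1 of the T-bet pair 0 genes of all were called, and without F2 of the IL-17A/F pair 3. Dcn was higher in both, at 327 CPM in T-bet and 211 CPM in IL-17A/F against 61.5 CPM in no T-cell libraries. Dcn and Col1a1 stand on the fibroblast marker list, whose sums in these 3 groups were 2730 to 4550 CPM against 612 to 1770 CPM without T cells. Male M4 of the IL-6Ra/IL-21R group, in set C like these 3 groups, had 4510 CPM, and the set B libraries of its group had 510 to 1490 CPM. The part of fibroblast RNA in these values was not tested, and with the library set as a term, which male M4 of the IL-6Ra/IL-21R group alone separates from these groups, 0 genes were called for IFN-gamma and T-bet and 35 for IL-17A/F. The 3 comparisons share the no T-cell libraries.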
